A study of Mus musculus with 6 samples.

Results

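The genes described here are 10 markers of Purkinje cells (PCs), taken as a fixed list of names: Calb1, Pcp2, Car8, Itpr1, Rora, Foxp2, Skor2, Lhx1, Lhx5 and Ppp1r17. They were found by symbol in the annotation of GRCm38, and all 10 are among the 53421 genes of the count table. RNA-seq was performed on cultured cerebellar granule cells (GCs) after knockdown (KD) of YTHDF2, a reader protein that binds m6A-modified mRNAs and is known to promote their decay. The question of the comparison is which mRNAs differ in level after YTHDF2 KD. GCs were dissociated from cerebella of wild-type C57BL/6 mice at postnatal day 8, infected with lentivirus and selected with puromycin. The lentivirus carried a hairpin that targets Ythdf2 (shYthdf2, 3 libraries, all made with 1 hairpin) or a control hairpin (shCtrl, 3 libraries), and both groups went through infection and selection. The cultures were not sorted for a cell type.

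The sample titles and the library names contradict each other on which 3 libraries are the KD. The library names, which carry the hairpin number, were followed here, and every direction would be inverted if the titles were right. The replicates are numbered 1, 2 and 4, as in the library names. Ythdf2 itself was at 501, 403 and 501 normalized counts in shYthdf2 replicates 1, 2 and 4, and at 619, 841 and 629 in shCtrl. All shYthdf2 libraries were below all shCtrl libraries, at 67.3% of the shCtrl mean, but the difference did not pass the test over all genes (log2 fold change -0.57, standard error (SE) 0.16, adjusted p = 0.125, edgeR quasi-likelihood test with Benjamini-Hochberg adjustment). The libraries held 17246821 to 21546595 counts. Replicate 2 stood apart from replicates 1 and 4 in both groups. The chi-square statistic per degree of freedom was taken between the counts of pairs of libraries. Between replicate 2 and the rest of its group it was 32.9 and 35.0 in shYthdf2 and 52.9 and 54.8 in shCtrl. Between replicates 1 and 4 it was 3.34 in shYthdf2 and 4.64 in shCtrl. Between replicate 2 of shYthdf2 and replicate 2 of shCtrl it was 22.1, lower than from either of them to the rest of its group.

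PCs are the large GABAergic neurons that carry the output of the cerebellar cortex. They receive parallel fibers from GCs on spiny dendrites, where the inositol trisphosphate receptor Itpr1 releases calcium from internal stores. Their identity depends on transcription factors that include the LIM homeodomain proteins Lhx1 and Lhx5, the nuclear receptor Rora and the corepressor Skor2. Most of these genes are not exclusive to PCs. Rora is also known from the interneurons of the molecular layer, and Itpr1 and Lhx1 are expressed in other neurons.

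Rora protein binds DNA at AGGTCA preceded by an A/T-rich stretch, and Pcp2 is a known target gene in PCs, so the region around the start of Pcp2 is shown beside that of Rora. Both are RefSeq windows on GRCm38.p6 that reach from 250 bases before to 50 bases after an annotated start, printed along the strand of the gene. RefSeq windows were matched for 3 of the 10 markers (Pcp2, Rora and Lhx1). Capitals mark AGGTCA, which was searched on both strands without the A/T-rich stretch, and the bases directly before the marked letters are not A/T-rich. The Pcp2 window is chr8:3625498-3625797 on the minus strand, and the Rora window is chr9:68653536-68653835 on the plus strand.
Pcp2: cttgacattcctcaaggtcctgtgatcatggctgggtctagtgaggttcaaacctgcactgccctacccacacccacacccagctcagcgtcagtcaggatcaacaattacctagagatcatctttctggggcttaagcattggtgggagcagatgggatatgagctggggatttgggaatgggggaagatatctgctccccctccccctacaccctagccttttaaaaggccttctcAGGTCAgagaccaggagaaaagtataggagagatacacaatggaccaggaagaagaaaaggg
Rora: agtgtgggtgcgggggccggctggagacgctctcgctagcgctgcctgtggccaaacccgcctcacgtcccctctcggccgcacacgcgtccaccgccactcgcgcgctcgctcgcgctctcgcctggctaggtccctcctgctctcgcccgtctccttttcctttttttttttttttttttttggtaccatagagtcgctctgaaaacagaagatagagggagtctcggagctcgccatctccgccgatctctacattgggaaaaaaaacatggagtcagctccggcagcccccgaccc
In the Pcp2 window the letters begin at position -12 from the start. They occurred in 3 of the 4 Pcp2 windows, at 2 different positions because these windows overlap, and in 5340 of all 32851 RefSeq windows (16.3%). The windows of Rora and Lhx1 (chr11:84525485-84525784, minus strand) did not hold these letters, which says nothing about binding elsewhere.

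The 10 markers differed widely in level in the shCtrl cultures. On the scale of normalized counts per kilobase of exon, Lhx1 was the highest at 349 ± 58.5 (SD, n = 3), followed by Lhx5 at 168 ± 40.6, Rora at 105.5 ± 9.18 and Calb1 at 80.4 ± 6.31. Car8 was at 33.1 ± 9.998, Pcp2 at 21.4 ± 4.31 and Itpr1 at 18.2 ± 2.13. Ppp1r17 was at 3.68 ± 0.484, Skor2 at 3.44 ± 1.65 and Foxp2 at 0.446 ± 0.109 per kilobase. In shYthdf2 the means stood in the same order, from 356 for Lhx1 and 183 for Lhx5 through 161 for Rora and 58.6 for Calb1 to 0.913 for Foxp2. The ranges of neighbours in this order overlapped in shCtrl for Pcp2 with Itpr1 and for Ppp1r17 with Skor2. They were separate for the other 7 neighbouring pairs. Exon length was merged over all transcripts of a gene, at 18319 bases for Itpr1 and 16346 for Foxp2. Their longest coding transcripts held 9870 and 6760 bases, so places in this order can depend on the length used. Lhx1 lay at the 82.3rd percentile of the 17214 genes tested in this measure, Rora at the 60.3rd, Calb1 at the 46.3rd, Pcp2 at the 24.3rd and Skor2 at the 2.99th. For scale, Zic1, a transcription factor of GCs, was at 10911 normalized counts per kilobase in shCtrl. The transcription factors Rora, Lhx1 and Lhx5 together made up 77.5% to 84.8% of the counts of the 10 markers in each library, and all 10 together were 0.0209% to 0.0265% of a library's counts. Pcp2 and Ppp1r17, which are used as markers because they are nearly confined to PCs within the cerebellum, were thus measured at 27 to 50 and 1 to 12 counts in a library. Which cells of the cultures carried these mRNAs was not measured, and in bulk cultures fewer cells of a type and less RNA per cell cannot be told apart.

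**Figure D1:**
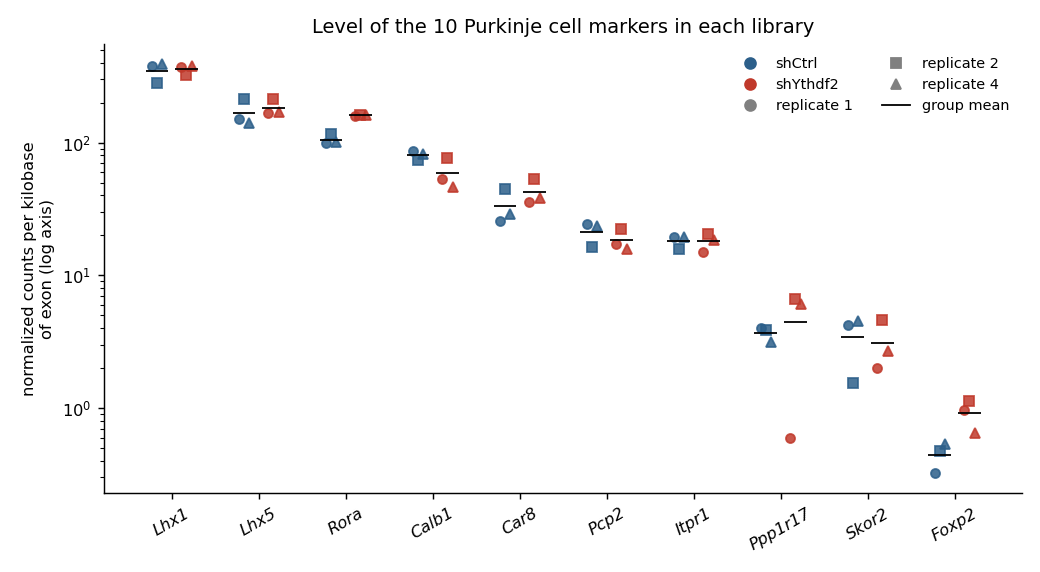
Levels of the 10 markers on a log axis of normalized counts per kilobase of exon, with 1 point per library and a line at each group mean (n = 3). Lhx1, at a shCtrl mean of 349, was the highest and Foxp2, at 0.446, the lowest, and in Rora all 3 shYthdf2 points lay above the 3 shCtrl points.

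Rora, the nuclear receptor that is mutated in staggerer mice and is required for PC maturation, had the clearest difference between the groups. The gene is on the plus strand of chromosome 9 from 68653786 to 69388246. It was at 2089, 2116 and 2097 normalized counts in shYthdf2 replicates 1, 2 and 4, and at 1301, 1517 and 1319 in shCtrl. All 3 shYthdf2 libraries were above all 3 shCtrl libraries, and the shYthdf2 libraries were nearly equal to each other (2100.5 ± 14.1 against 1379 ± 120, SD, n = 3). The level in shYthdf2 was 152% of that in shCtrl (log2 fold change 0.61, SE 0.10), with an adjusted p of 0.0506 by the edgeR quasi-likelihood test with Benjamini-Hochberg adjustment, which missed the threshold of 0.05. With the replicate number as a block, Rora passed the threshold (log2 fold change 0.61, adjusted p = 0.0450, edgeR). The block called 1.35% of all genes tested. The log2 fold change of Rora lay between 0.56 and 0.68 in all 15 alternative fits. The adjusted p was under 0.05 in 9 of them, in a range from 3.03e-09 (without both libraries of replicate 2) to 0.286 (without shYthdf2 replicate 1). Rora was called, for example, without a filter on low counts (1.98% of genes called), with at least 10 counts in every library (0.862%), with a term for replicate 2 (22.1%) and without shYthdf2 replicate 2 (4.70%) or shCtrl replicate 2 (18.3%). Rora was also called with library size alone as the scale (0.627%), and was not called with RLE size factors (0.610%). Rora took 42.1% to 43.6% of the summed marker counts in shYthdf2 and 31.1% to 36.9% in shCtrl. Between libraries of the same number the log2 difference was 0.68, 0.48 and 0.67 for replicates 1, 2 and 4. A two-sided exact permutation test of the 3 against 3 normalized counts gave p = 0.1, the smallest that this design allows.

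Lhx1 and Lhx5, LIM homeodomain factors that act together with the cofactor Ldb1 in PC differentiation, were the most abundant markers per kilobase. Lhx1 (chromosome 11, 84518284 to 84525535, minus strand) was at 1519, 1307 and 1526 normalized counts in shYthdf2 and at 1538, 1149 and 1582 in shCtrl. The libraries of replicate 2 were the lowest in both groups, and the groups overlapped (log2 fold change 0.03, SE 0.14, adjusted p = 0.934, edgeR). Lhx5 (chromosome 5, 120431699 to 120441223, plus strand) was at 453, 571 and 456 normalized counts in shYthdf2 and at 405, 578 and 376 in shCtrl. Here the libraries of replicate 2 were the highest of both groups and nearly equal, and the groups again overlapped (log2 fold change 0.12, SE 0.19, adjusted p = 0.759, edgeR). An antisense gene, Gm27199, shares 69 exon bases with Lhx5 and had 17 to 45 counts in a library, which is small beside the 342 to 596 counts of Lhx5.

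Foxp2, a forkhead factor of PCs that is widely studied for its part in vocal behaviour, was scarce in these cultures. The gene spans 14901349 to 15441977 on the plus strand of chromosome 6. It had 15, 19 and 10 raw counts in shYthdf2 replicates 1, 2 and 4, and 6, 8 and 8 in shCtrl. All shYthdf2 libraries were above all shCtrl libraries, by a narrow margin between shYthdf2 replicate 4 (10.6 normalized counts) and shCtrl replicate 4 (8.80). Foxp2 passed the count filter only through shYthdf2, where each library had at least 10 counts and each shCtrl library had fewer. Its lack of overlap was thus fixed by the filter. The log2 fold change was 1.04 with an SE of 0.40, and it did not pass the test (unadjusted p = 0.0339, adjusted p = 0.208, edgeR). Skor2, a corepressor required for PC differentiation, had 6, 15 and 8 raw counts in shYthdf2 and 15, 5 and 13 in shCtrl. Replicate 2 was the highest library of shYthdf2 and the lowest of shCtrl, and the groups overlapped (log2 fold change -0.13, SE 0.53, adjusted p = 0.915, edgeR).

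Calb1, Car8 and Itpr1 belong to calcium handling. Calb1 encodes calbindin, the calcium buffer whose antibody is a common stain for PCs (chromosome 4, 15881264 to 15908064, plus strand). It was at 259.5, 369.7 and 223.1 normalized counts in shYthdf2 replicates 1, 2 and 4, and at 417, 357 and 395 in shCtrl. Replicates 1 and 4 of shYthdf2 were below every shCtrl library, whereas shYthdf2 replicate 2 was above shCtrl replicate 2, so the groups overlapped. The mean was 72.9% of that in shCtrl (284 ± 76.3 against 389.6 ± 30.6, SD, n = 3), and the difference did not pass the test (log2 fold change -0.45, SE 0.20, adjusted p = 0.263, edgeR). Without both libraries of replicate 2 the log2 fold change of Calb1 was -0.76 with an adjusted p of 1.43e-05 (edgeR), in a fit with 2 libraries per group that called 52.7% of all genes.

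Car8, a carbonic anhydrase relative without enzyme activity that binds the Itpr1 receptor, is on chromosome 4 from 8143362 to 8239041 on the minus strand. Car8 was at 137, 205 and 149 normalized counts in shYthdf2 and at 99.4, 172 and 112 in shCtrl. In each pair of libraries with the same number shYthdf2 was the higher, by 0.46, 0.25 and 0.41 on the log2 scale for replicates 1, 2 and 4. Replicate 2 was the highest in both groups, and because of it the groups overlapped (log2 fold change 0.36, SE 0.27, adjusted p = 0.503, edgeR). Without both libraries of replicate 2 the value was 0.43 (adjusted p = 0.0244, edgeR). Itpr1 (chromosome 6, 108213096 to 108551109, plus strand) was at 274, 378 and 338 normalized counts in shYthdf2 and at 357, 288 and 354 in shCtrl. Its groups overlapped over most of their range, with means of 330.1 ± 52.5 and 333 ± 39.0 (SD, n = 3), and its log2 fold change was -0.01 (SE 0.17, adjusted p = 0.975, edgeR).

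Pcp2, which encodes a modulator of G-protein signaling, and Ppp1r17, which encodes a phosphatase inhibitor phosphorylated by cGMP-dependent kinase, are the remaining markers. Pcp2 (chromosome 8, 3623371 to 3625545, minus strand) was at 31.4, 40.8 and 28.7 normalized counts in shYthdf2 and at 44.4, 30.1 and 42.9 in shCtrl. As in Calb1 and Skor2, shYthdf2 was the lower in replicates 1 and 4 and the higher in replicate 2, and the groups overlapped (log2 fold change -0.22, SE 0.29, adjusted p = 0.715, edgeR). On the opposite strand, exons of Pet100 cover 51.5% of the exon bases of Pcp2, and Pet100 had 122 to 212 counts in a library. Whether the counting used strand is not given in the sources used here, so the Pcp2 values are uncertain. Ppp1r17 (chromosome 6, 56017497 to 56032689, plus strand) had 1, 12 and 10 raw counts in shYthdf2 and 8, 7 and 5 in shCtrl, and it was too low to be tested.

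Of the 9 markers tested, 0 passed an adjusted p of 0.05 in the edgeR test, where 0.604% of all genes tested passed (0.244% higher and 0.360% lower in shYthdf2). At an unadjusted p under 0.05 it was 2 of 9 (22.2%), namely Rora and Foxp2, beside 20.1% of all genes tested (9.50% higher and 10.6% lower). Rora and Foxp2 were also the 2 markers without overlap between groups (22.2%), beside 26.0% of all genes (12.6% higher and 13.4% lower). These shares were near those of all genes. Foxp2 was tested only because its shYthdf2 libraries passed the count filter, so its lack of overlap followed from the filter. Its place in these counts is no result about the markers. The log2 fold change was above 0 in 5 of the 9 markers, beside 50.8% of all genes, and its median was 0.03, beside 0.01 over all genes tested. The same counts by other tools were 1 marker with DESeq2 (Rora, adjusted p = 0.00167), where 6.84% of genes passed, and 0 with limma-voom, where 0.139% passed. On simulated counts 23.4% of the DESeq2 calls were unchanged genes, beside 4.58% of the edgeR calls. The simulation had no difference between replicate numbers, whereas replicate 2 stood apart in the data. These shares therefore cannot weigh the call of Rora.

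**Figure D2:**
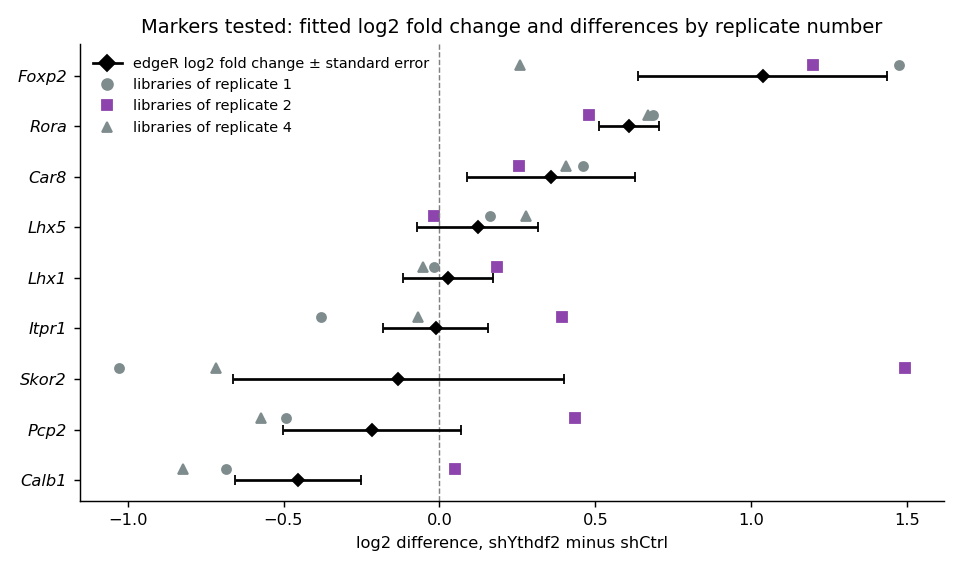
Log2 differences between shYthdf2 and shCtrl for the 9 markers tested, with black diamonds and bars for the edgeR log2 fold change and its SE, and points above them for the libraries of each replicate number (with 0.5 counts added). In Rora, Car8 and Foxp2 all 3 points lie above 0, and in Calb1, Pcp2, Skor2, Itpr1, Lhx1 and Lhx5 the purple square of replicate 2 lies on the other side of 0 from replicates 1 and 4.

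In 6 of the 9 markers tested, the difference in replicate 2 had the other sign than in replicates 1 and 4. On the log2 scale the difference in Calb1 was -0.68, 0.05 and -0.82 for replicates 1, 2 and 4. The differences in Pcp2 were -0.49, 0.43 and -0.57, and those in Skor2 were -1.03, 1.49 and -0.72. Itpr1 was at -0.38, 0.39 and -0.07, and Lhx1 was at -0.02, 0.19 and -0.05. These 5 markers were the lower in shYthdf2 in replicates 1 and 4 and the higher in replicate 2, whereas Lhx5 had the opposite signs, at 0.16, -0.02 and 0.28. The pattern was noticed after the values were seen and was not tested. In both groups, replicate 2 also had the highest sums of the markers of GCs, of GC progenitors with cycling cells, of GABAergic interneurons, of unipolar brush cells, of oligodendrocytes and of endothelial and mural cells, and of the relatives of the markers (7 of the 14 other lists). Their part in the PC marker values was not tested. Without both libraries of replicate 2, 4 of the 9 markers passed the edgeR test (44.4%, beside 52.7% of all genes in that fit): Calb1 was the lower in shYthdf2, whereas Rora, Car8 and Lhx5 were the higher. Without these libraries all 9 markers had separate groups, as did 75.9% of all genes, and without shCtrl replicate 2 alone 7 did, as did 54.2% of all genes.

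**Figure D3:**
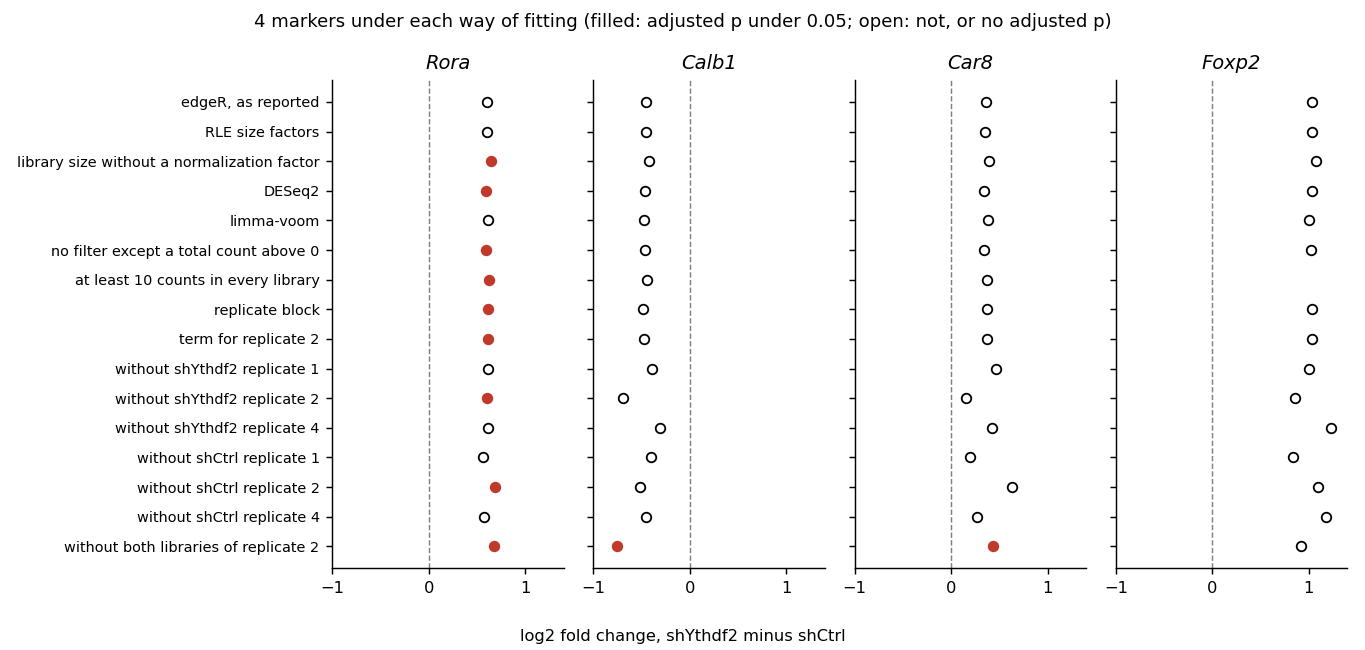
Log2 fold changes of Rora, Calb1, Car8 and Foxp2 in the reported fit and in each of the 15 alternatives that could fit the gene, with filled points for an adjusted p under 0.05. Rora stays between 0.56 and 0.68, and Calb1 stays below 0, with a filled point only without both libraries of replicate 2.

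Summed over the 10 markers, normalized counts were 4786, 5032 and 4847 in shYthdf2 replicates 1, 2 and 4, and 4186, 4109 and 4209.6 in shCtrl. The sum in shYthdf2 was 117% of that in shCtrl, and the groups did not overlap. The rise lay in Rora: the mean sum was 4168.5 in shCtrl and 4888 in shYthdf2, and the mean of Rora was 1379 and 2100.5. Lhx1 was at 1423 and 1451. Without Lhx1 and Rora, the markers with the most counts, the sums were 1178, 1609 and 1224 in shYthdf2 and 1348, 1444 and 1308 in shCtrl, at 97.8% of shCtrl, with overlapping groups. Of these sums, that of shYthdf2 was the lower in replicates 1 and 4 and the higher in replicate 2. The value was 87.9% to 103.6% with 1 library left out and 100.2% with library size alone as the scale. The ratio of Rora to Calb1 counts was 8.05, 5.72 and 9.40 in shYthdf2 replicates 1, 2 and 4, and 3.12, 4.25 and 3.34 in shCtrl. This ratio was chosen after the values were seen and is given with no test.

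A second list held 15 other genes known from PCs, all of which were tested. Of them, 0 passed the edgeR test at an adjusted p of 0.05, beside 0.604% of all genes. The median log2 fold change was 0.10, and 7 of 15 had separate groups (46.7%, beside 26.0% of all genes). Inpp5a, a phosphatase that removes inositol trisphosphate, was at 337, 507 and 387 normalized counts in shYthdf2 and at 757, 647 and 779 in shCtrl (log2 fold change -0.83, SE 0.17, adjusted p = 0.0718, edgeR), with every shYthdf2 library the lower. The log2 fold change was 1.26 for the calmodulin-binding Pcp4, 0.40 for the Notch ligand-like Dner and -0.43 for the calcium-activated potassium channel Kcnma1, each with an unadjusted p under 0.05 and none past the adjusted threshold.

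The pathway that Itpr1 belongs to was covered by 18 genes of G-protein signaling and calcium release, and all were tested. Here 2 of the 18 fell and 0 rose, beside 0.360% of all genes lower and 0.244% higher. The list was chosen with earlier results of these data known, so this share was not tested. Atp2b2, the plasma membrane pump that extrudes calcium, was at 4356, 4464 and 4420 normalized counts in shYthdf2 and at 9562, 7856 and 9328 in shCtrl. All its shYthdf2 libraries were the lower (log2 fold change -1.01, SE 0.11, adjusted p = 0.0299, edgeR). Gna11, a G-protein subunit that activates phospholipase C, was at 1884, 1945 and 1815 against 3049, 3142 and 2994 normalized counts, again with separate groups (log2 fold change -0.70, SE 0.08, adjusted p = 0.0402, edgeR). Both calls were lost without shYthdf2 replicate 1 or 4 or shCtrl replicate 1 or 4, fits in which 0 genes passed. The highest adjusted p of these fits was 0.286 for each gene. Gnaq, a G-protein subunit of the same family, had a log2 fold change of 0.00 with overlapping groups. Groups were separate in 10 of the 18 genes (55.6%, beside 26.0% of all genes), in both directions, and the median log2 fold change was 0.15. These genes are expressed in GCs as well, and the cells behind the values were not measured.

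**Figure D4:**
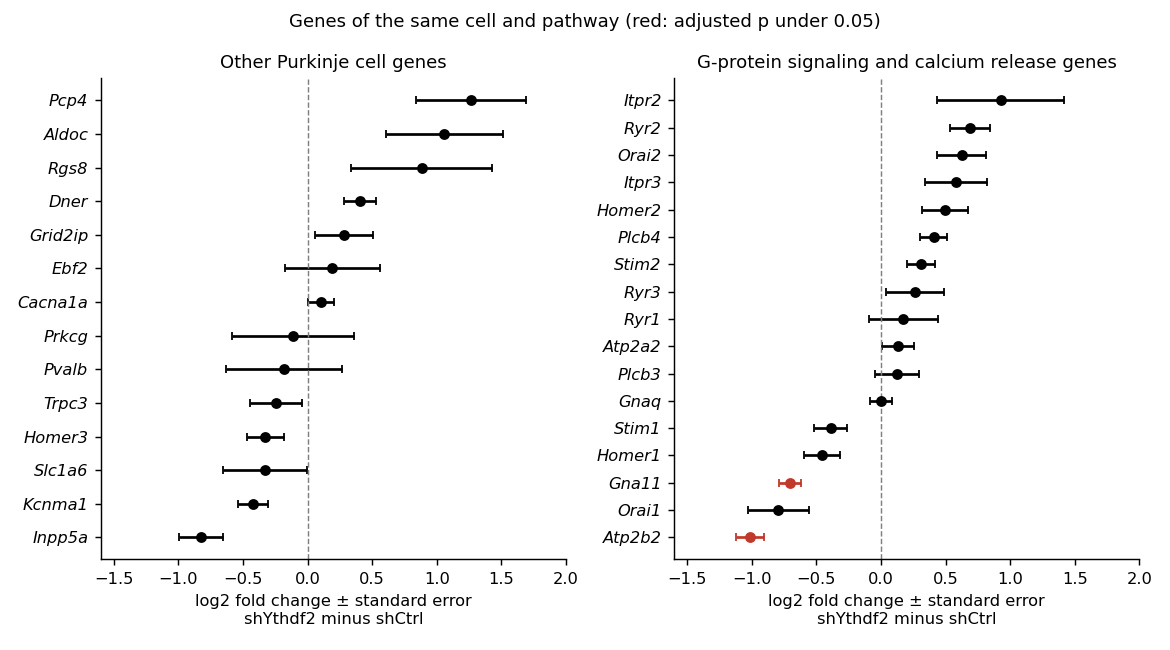
Log2 fold changes with SE (edgeR) for genes of the list of other PC genes and of the list of G-protein signaling and calcium release, sorted by value, with red points for an adjusted p under 0.05. Atp2b2 at -1.01 and Gna11 at -0.70 are the red points, and Pcp4 at 1.26 and Inpp5a at -0.83 lie on opposite sides of 0.

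Among relatives of the markers, 13 of 14 were tested, of which 1 fell and 0 rose, beside 0.360% of all genes lower and 0.244% higher. Ski, a corepressor of the family of Skor2, was at 4501, 5392 and 4495 normalized counts in shYthdf2 and at 11888, 8925 and 11135 in shCtrl (log2 fold change -1.15, SE 0.14, adjusted p = 0.0430, edgeR), and its groups did not overlap. The call was lost in the same 4 fits as above. Skor1, the closest relative of Skor2, was at 1655, 1819 and 1586 normalized counts in shYthdf2 and at 1816, 1698 and 1755 in shCtrl (log2 fold change -0.06, SE 0.09, adjusted p = 0.764, edgeR). Rorb, a relative of Rora, was at 24.2 to 49.2 normalized counts in all libraries (log2 fold change 0.06, SE 0.37, adjusted p = 0.942, edgeR). Of 19 further LIM homeodomain factors and their cofactors, 11 were tested and 0 passed. The cofactor Ldb1 was at 3621, 3602 and 3951 normalized counts in shYthdf2 and at 4186, 3983 and 4096 in shCtrl (log2 fold change -0.13, SE 0.09, adjusted p = 0.440, edgeR).

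Markers of other cells that the cultures could hold were read in the same fit. Of 11 markers of GABAergic interneurons, 10 were tested, 1 rose and 0 fell, beside 0.244% of all genes higher and 0.360% lower. Tfap2b, a transcription factor of cerebellar GABAergic precursors, was at 1123, 1175 and 1074 normalized counts in shYthdf2 and at 595, 725 and 583 in shCtrl (log2 fold change 0.83, SE 0.12, adjusted p = 0.0496, edgeR), and it too was not called in the 4 fits without replicate 1 or 4 of either group. The summed interneuron markers were at 14354 to 16134 normalized counts in shYthdf2 and 10409 to 12882 in shCtrl. The groups did not overlap, and the sum moved in the direction of Rora. The single markers were not uniform. Of the 10 tested, 9 had a log2 fold change above 0 and 1 below, and groups were separate in 3. Slc6a5 was lower in shYthdf2 (log2 fold change -0.62, adjusted p = 0.450, edgeR). Tfap2a was at 0.03 (adjusted p = 0.924, edgeR), and both genes had overlapping groups. Gad1 and Gad2, which PCs share with interneurons, had log2 fold changes of 0.49 and 0.44 (adjusted p = 0.0876 and 0.291, edgeR). In this list Npy was too low to be tested, with 0 to 2 counts in a library. The part of interneurons in the Rora difference was not tested.

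The 12 GC markers summed to 164217 to 166559 normalized counts in shYthdf2 and 165771 to 184045 in shCtrl, with 0 past the threshold. The 9 oligodendrocyte markers summed to 15056 to 19451 and 5506 to 19728, the 11 markers of astrocytes and Bergmann glia to 12803 to 13984 and 9220 to 15469, and the 7 unipolar brush cell markers to 14300 to 14704 and 13492 to 14826. Microglial markers summed to 407.5 to 1166 and 186 to 852, endothelial and mural markers to 1771 to 4855 and 1536 to 3745, and markers of GC progenitors and cycling cells to 1118 to 1523 and 766 to 1287. Markers of cerebellar nuclei neurons (4 of 7 tested) summed to 7561 to 7672 in shYthdf2 and 6424 to 7229 in shCtrl. All these lists other than the last overlapped between groups and 0 of their genes passed the test. Cldn5, a defining endothelial gene, had 0 or 1 count in a library, and the microglial P2ry12 was too low to be tested. Other genes of these 2 lists were higher, with Cdh5 at 26 to 285 counts in a library and C1qb at 41 to 331. The immediate-early genes moved with the groups, as 3 of 10 fell (Npas4, Nr4a3 and Fosl2, log2 fold changes -4.89, -3.44 and -2.51), beside 0.360% of all genes. The sum of the list was 3437 to 5504 normalized counts in shYthdf2 and 13671 to 53030 in shCtrl. With the replicate block Nr4a3 and Fosl2 were not called (adjusted p = 0.0519 and 0.0525, edgeR), and all 3 calls were lost in the same 4 fits without replicate 1 or 4 of a group (highest adjusted p = 0.286, edgeR). Whether any of these had a part in the marker values was not tested.

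**Figure D5:**
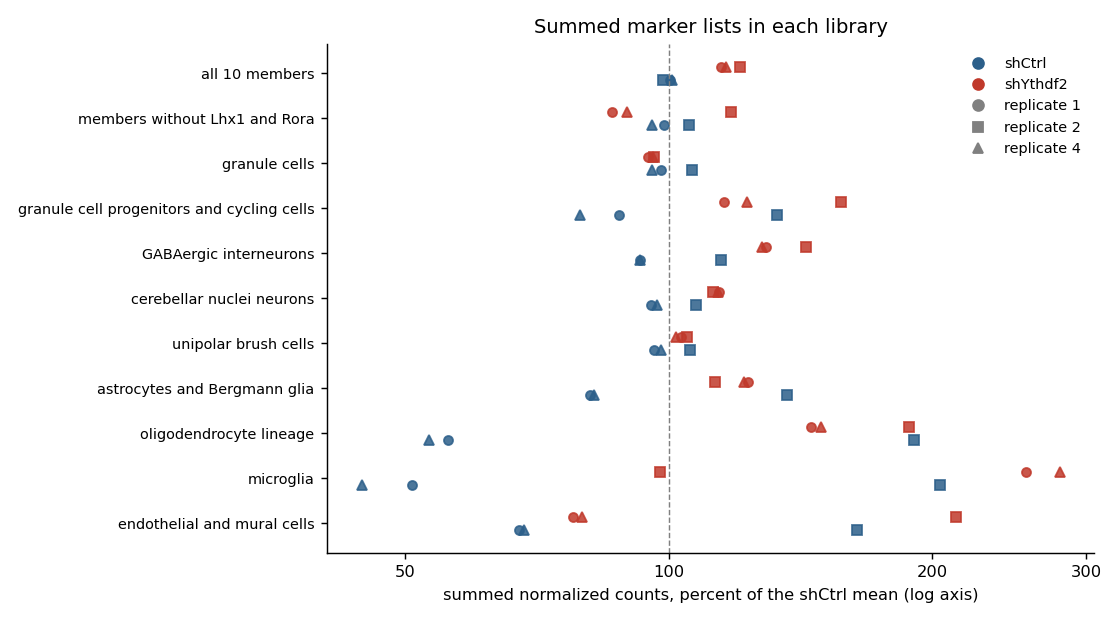
Summed normalized counts of the 10 PC markers, of the markers without Lhx1 and Rora, and of 9 lists for other cells, as percent of the shCtrl mean on a log axis, with 1 point per library. The sum of all 10 members is higher in every shYthdf2 library (117% of shCtrl on average), and without Lhx1 and Rora it is at 97.8% with overlapping groups. Replicate 2 (squares) lies apart from replicates 1 and 4 in several lists.

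Because YTHDF2 binds m6A, the letters GGACT, a frequent context of m6A, were counted in the longest coding transcript of each gene. Rora held 8 in 10878 bases (0.735 per kilobase), Calb1 4 in 4222 bases (0.947) and Lhx1 4 in 3846 bases (1.04). The median of 13719 coding genes tested was 1.05 per kilobase, and 2 of the 10 markers were above it, namely Foxp2 at 1.18 and Ppp1r17 at 2.85. These are counts of letters and not of modified sites.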

How the data were processed

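The authors deposited 1 table of counts per gene, as whole numbers without normalization, for 3 shYthdf2 and 3 shCtrl libraries. By the study's methods, the authors filtered reads, used HISAT and TopHat2 to map them to GRCm38, and counted with HTSeq, whereas the submitters' processing notes name mm9 and Bowtie 0.12.2. The labels and the methods also name different library kits. Gene IDs were matched to the GENCODE M21 annotation of GRCm38 (52489 of 53421 with a symbol, 785 outside the annotation). Groups were taken from the library names. The methods call the replicates biological, but the labels name no separate cultures or animals, so p-values measure the spread between these libraries.

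The test was that of edgeR 4.0.16 under R 4.3.3 (filterByExpr with minimum count 10 and minimum total count 15, which left 17214 genes and 99.8% of the counts, TMM normalization, quasi-likelihood test, Benjamini-Hochberg adjustment over all genes tested). Normalized counts are TMM-normalized counts at the mean library size of 18981273, and the SE is the log2 fold change divided by the square root of F. Levels per kilobase were divided by merged exon length. The deviations of same-numbered libraries from their group means correlated at 0.250 (replicate 1), 0.361 (replicate 2) and 0.305 (replicate 4). Deviations of 3 libraries from their mean sum to 0, so a shift shared by both libraries of replicate 2 could raise all 3 values. These correlations therefore cannot decide whether the numbers pair the libraries, and the labels do not say what same-numbered libraries share. By chi-square per degree of freedom, shYthdf2 replicate 2 was nearer to shCtrl replicate 2 (22.1) than to its own group. For shYthdf2 replicate 1 the value was 53.3 to shCtrl replicate 1 and 47.1 to shCtrl replicate 4. For shYthdf2 replicate 4 it was 52.0 to shCtrl replicate 1 and 43.7 to shCtrl replicate 4. The reported fit had no block, and the numbers were a block in an alternative only. Alternatives were RLE size factors, library size alone, DESeq2 1.42.0, limma-voom (limma 3.58.1), other filters, the replicate block, a term for replicate 2 and leaving out libraries. The script was tested on simulated counts with known changes and no difference between replicate numbers. Unchanged genes were 4.58% of the calls with edgeR, 1.41% with the replicate block, 23.4% with DESeq2 and 3.31% with limma-voom. Python 3.11.15 and matplotlib 3.10.9 were used for summaries and plots.

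The members and the gene lists were chosen with earlier results of these data known. All 10 markers were named. Of other lists, genes past the threshold and up to 4 of the most abundant were named, and any gene of the PC, calcium release and relatives lists could be. Gad1, Gad2, Slc6a5, Tfap2a, Npy, P2ry12, Cldn5 and Cdh5 were named beyond this rule, after their values were seen. The depth of 17246821 to 21546595 counts limits the precision of Foxp2, Skor2, Pcp2 and Ppp1r17. Some genes of these lists are counted but not reported by name or plotted here.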

Additional observations from a re-analysis of the deposited data

How the results depend on the processing

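Over all genes, 104 passed the edgeR test, and the count was 1137 with DESeq2, 24 with limma-voom, 639 with no filter, 232 with the replicate block, 3799 with a term for replicate 2 and 9186 without both libraries of replicate 2. With 1 library left out it was 0 to 3239. It was 829 without shYthdf2 replicate 2, 3239 without shCtrl replicate 2, and 0 without any of the other 4, where 1986 to 2120 genes had an unadjusted p under 0.05. Of the markers, 1 passed (Rora) with library size alone, DESeq2, no filter, the stricter filter of 10 counts per library, the replicate block (adjusted p = 0.0450) and the term for replicate 2. It was 4 without both libraries of replicate 2, and 0 to 1 with 1 library left out. The block changed no other call of a marker, and ended the calls of Nr4a3 and Fosl2. Markers whose groups do not overlap were 9 of 9 without both libraries of replicate 2 (75.9% of all genes) and 2 to 7 with 1 library left out, with 7 without shCtrl replicate 2 (54.2% of all genes). With library size alone, without both libraries of replicate 2 and with 1 library left out, the log2 fold change of Itpr1 was 0.021, -0.22 and -0.12 to 0.11. Skor2 was at -0.89 without both libraries of replicate 2 and at -0.54 to 0.10 with 1 library left out, and Lhx1 was at -0.04 and at -0.10 to 0.11. Ythdf2 passed with the term for replicate 2 (-0.56, adjusted p = 0.0465) and without both libraries of replicate 2 (-0.32, adjusted p = 0.00124), and was -0.66 to -0.41 with 1 library left out. The cause of these changes was not tested. DESeq2 gave no adjusted p for Foxp2, Skor2 and Ppp1r17. The other 6 markers tested kept their direction in every alternative that could fit them. With 1 library left out, the log2 fold change was -0.69 to -0.31 for Calb1 (lowest without shYthdf2 replicate 2), -0.38 to -0.11 for Pcp2, 0.16 to 0.63 for Car8, 0.00058 to 0.34 for Lhx5, 0.84 to 1.23 for Foxp2 and 0.56 to 0.68 for Rora. Calb1, Car8 and Lhx5 passed only without both libraries of replicate 2. Depth limits Foxp2, Skor2 and Ppp1r17, with at most 19 counts in a library.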
